A study of Mus musculus with 11 samples.

Results

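Complex I (NADH:ubiquinone oxidoreductase) is the entry point of the mitochondrial respiratory chain. Its matrix arm takes electrons from NADH and passes them along iron-sulfur clusters to ubiquinone, and its membrane arm pumps protons with the energy released. The core of the matrix arm is encoded in the nucleus, the core of the membrane arm in mitochondrial DNA, and a large number of nuclear accessory subunits surround both. Assembly factors build and modify the modules and are absent from the finished enzyme. Lactate dehydrogenase A (LDHA) reduces pyruvate to lactate and oxidises NADH in the cytosol, so that both enzymes regenerate NAD+, in different compartments.

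Members were taken by symbol: every gene of the count table whose mouse symbol starts with Ndufa, Ndufb, Ndufc, Ndufs or Ndufv, with the Ndufaf assembly factors as a subgroup. This gave 47 of 24421 genes, of which 39 carry a subunit name and 8 are assembly factors. Among the 39, 36 encode complex I subunits: 7 core subunits of the matrix arm, 9 accessory subunits of the matrix arm, 19 of the membrane arm and the acyl carrier protein Ndufab1. The other 3 are Ndufa4, now assigned to complex IV, its relative Ndufa4l2, and Ndufs5-ps, a transcribed pseudogene of Ndufs5. The mitochondrially encoded subunits and Ndufb1 were not analysed here. A filter on low counts passed 46 members. Ndufa4l2 did not pass: it had 3, 1 and 3 counts in KO D2 replicate 3, WT D2 replicate 1 and WT D2 replicate 3, and 0 in the other libraries.

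RNA-seq libraries came from Ly49H+ natural killer (NK) cells of the spleen, sorted as TCRb- CD3e- NK1.1+ DX5+ cells from mixed bone marrow chimeras on C57BL/6. Ly49H is an activating receptor for a protein of mouse cytomegalovirus (MCMV), and in vivo MCMV infection is the treatment the labels give. The groups were LDHA-deficient (KO, CD45.2) D0 with 3 libraries, KO D2 with 3, wild-type (WT, CD45.1) D0 with 2 and WT D2 with 3, each library described as 1 individual mouse. D0 and D2 are terms of the titles. A separate label gives day 2 after infection for all 11, D0 titles included, so it is not settled whether D0 mice were infected. For WT titles the genotype label lists both genotypes, and the title was followed. Age and the way LDHA was removed are not given in the sources used here. In a mixed chimera both genotypes develop in 1 host, but the labels do not state which WT and KO libraries shared a host.

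Total counts ran from 19452460 to 27992092 per library. Levels are CPM, counts scaled to a common library total after TMM normalisation. Ldha was at 91.1, 103.2 and 103.7 CPM in KO D0, 114.6, 112.8 and 101.4 in KO D2, 562.5 and 656.1 in WT D0 and 3100, 2752 and 2856 in WT D2, so every KO library lay below every WT library. Summed NK cell markers (Ncr1, Klrb1c, Klra8, Itga2, Eomes, Gzmb, Prf1) ran from 5689 to 7474 CPM at D0 and from 35710 to 44100 CPM at D2, where Gzmb made up most of the sum (group means of 32000 CPM in KO and 31200 in WT). Klrb1c, Klra8, Itga2 and Eomes fell from D0 to D2 in both genotypes, with log2 fold changes in WT of -1.68, -1.43, -0.71 and -0.94. Gzmb and Prf1 rose, by 4.77 and 1.40 in WT and by 5.14 and 1.56 in KO. By the edgeR test used below, Ncr1 rose in KO (0.37, adjusted p = 0.0085) and was not called in WT (0.22, adjusted p = 0.14). Between genotypes, by the same test, Ncr1 was lower in KO at D0 (-0.96, adjusted p = 0.0063) and D2 (-0.80, adjusted p = 0.00032). Eomes was lower in KO at D2 (-0.59, adjusted p = 0.048). The other markers of this list did not pass between genotypes. Summed markers of T cells (5 genes) ran from 12.1 to 30.5 CPM and of B cells (5 genes) from 4.03 to 9.27 CPM over all libraries. Erythroid markers (4 genes) stood at 925.3 CPM in KO D0 replicate 2 and 826 CPM in WT D0 replicate 2, against 38.9 to 318.7 CPM elsewhere.

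Between D0 and D2 the complex I genes rose as a group in both genotypes. In WT, 39 of 46 members were called higher and 1 lower at D2 (edgeR quasi-likelihood test, Benjamini-Hochberg adjusted p under 0.05 over all 13711 genes tested), with a median log2 fold change of 0.73. In KO, 38 were called higher and 1 lower, with a median of 0.75. Over all genes tested, 27.5% were called higher and 26% lower in WT, with a median of -0.07, and 27% higher and 34.5% lower in KO, with a median of -0.20. The summed level of the 36 subunits was 1821 and 1953 CPM in WT D0 and 3163, 2992 and 3524 CPM in WT D2, and 2131, 1923 and 2188 CPM in KO D0 and 3459, 3407 and 3457 CPM in KO D2. The D0 and D2 sums did not overlap in either genotype. At D2 the sums of the genotypes overlapped.

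Of the members called higher, 36 were called in both genotypes, 3 in WT alone (Ndufa10, Ndufa6 and Ndufaf6) and 2 in KO alone (Ndufs7 and Ndufs5-ps). Of these 5, Ndufaf6 passed the test of the difference between genotypes. The 41 members that were higher at D2 without overlap between libraries in WT, and the 41 in KO, stand beside 33.6% and 29.2% of all genes tested. Because RNA was measured in bulk, fewer cells of a type and less RNA per cell cannot be told apart. Markers of other cells moved with the days: summed monocyte and macrophage markers (5 genes) ran from 24.1 to 63.3 CPM at D0 and 13.0 to 20.1 at D2, with 3 of 5 genes called lower in WT and 2 of 5 in KO. Markers of other innate lymphoid cells (5 genes, 132.4 to 183.4 CPM at D0 and 61.0 to 74.8 at D2) went both ways: 3 of the 4 tested fell and 1 rose in each genotype. Gata3, which made up most of that sum, changed by -1.06 in WT and -1.54 in KO, and Il1rl1 by 2.00 and 2.11. Of 4 neutrophil markers tested, 1 was called lower in WT and 3 in KO. Of 4 dendritic cell markers tested, 1 was called higher in WT and 1 lower in KO. Of 4 B cell markers tested, 1 was called lower in each genotype, and of 5 T cell markers 1 was called higher in KO and 0 in WT. Of 4 erythroid markers 0 were called in either genotype. The part of these markers in the rise was not tested. Without D0 replicate 2 of KO, one of the libraries with high erythroid markers, 36 members were called in KO. Leaving out WT D0 replicate 2, the other such library, left 1 library in WT D0. That fit cannot tell the markers of the library from the smaller group.

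**Figure D1:**
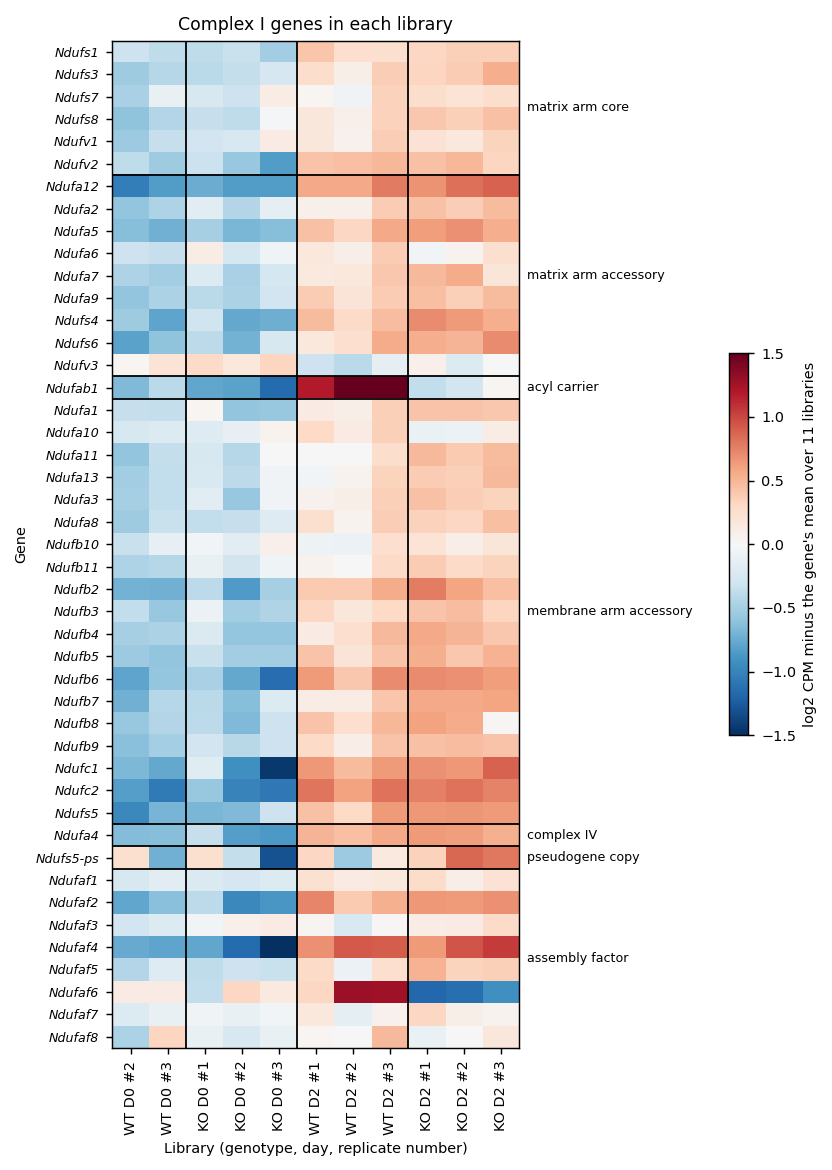
Level of 45 tested members (rows, grouped by role) in the 11 libraries (columns), as the log2 CPM minus the member's own mean over the libraries, red for higher and blue for lower; the colour scale ends at 1.5 in either direction and larger differences take the end colour. D2 columns lie above D0 columns for most members, Ndufab1 is highest in WT D2, and Ndufaf6 is lowest in KO D2.

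The matrix arm core holds the flavin and iron-sulfur path. Ndufv1, which binds NADH and the flavin, was at 75.8 and 86.9 CPM in WT D0, 124.4, 115.6 and 142.8 in WT D2, 90.6, 93.9 and 120.3 in KO D0 and 128.8, 123.8 and 139.5 in KO D2. Ndufv2, its iron-sulfur partner, was at 76.05 and 68.2 CPM in WT D0, 133.1, 134.8 and 139.1 in WT D2, 79.04, 66.7 and 55.3 in KO D0 and 133.8, 140.0 and 123.6 in KO D2. Ndufs1, which carries several iron-sulfur clusters, was at 112.7 and 107.1 CPM in WT D0, 187.1, 166.1 and 164.5 in WT D2, 107.6, 110.4 and 97.02 in KO D0 and 173.3, 179.1 and 179.3 in KO D2. For these 3 genes all D2 libraries lay above all D0 libraries of the same genotype, and Ndufv2 had the largest core change, with log2 fold changes of 0.91 in WT and 0.98 in KO.

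The remaining core subunits lead to the ubiquinone site. Ndufs3, a structural core subunit, was at 53.1 and 56.99 CPM in WT D0, 92.1, 81.9 and 99.1 in WT D2, 57.9, 60.1 and 64.7 in KO D0 and 95.7, 100.1 and 111.7 in KO D2. Its D2 libraries were above its D0 libraries in both genotypes. Ndufs7, which holds the last iron-sulfur cluster of the path, was at 78.2 and 101.5 CPM in WT D0, 111.9, 106.4 and 139.4 in WT D2, 93.1, 88.6 and 118.8 in KO D0 and 131.9, 126.4 and 132.6 in KO D2. Ndufs8, which carries iron-sulfur clusters ahead of it, was at 62.7 and 70.05 CPM in WT D0, 107.0, 100 and 121.1 in WT D2, 75.03, 73.04 and 93.05 in KO D0 and 126.4, 122.2 and 128.9 in KO D2. Of the 7 core genes 6 were called higher in WT and 7 in KO, both with a median log2 fold change of 0.65. The exception was Ndufs7 in WT (0.41, adjusted p = 0.057), which was called in 2 of 11 fits that left out 1 library and with an adjustment for GC content. The KO calls of Ndufv1 (0.36, adjusted p = 0.031) and Ndufs7 (0.38, adjusted p = 0.042) were each lost in 9 of 11 fits that left out 1 library, all but those without KO D0 replicate 3 or WT D2 replicate 2, with adjusted p up to 0.19 and 0.24. The WT call of Ndufv1 was lost without WT D0 replicate 2 (adjusted p = 0.062).

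Among the accessory subunits of the matrix arm, 8 of 9 were called higher and 1 lower in WT (median 0.85) and 7 higher in KO (median 0.81). In the membrane arm, 18 of 19 were called higher in WT (median 0.79) and 17 in KO (median 0.78), with none lower. Ndufc2, a small membrane arm subunit, was at 30.1 and 25.5 CPM in WT D0, 93.4, 81.2 and 93.7 in WT D2, 35.9, 26.6 and 25.3 in KO D0 and 90.6, 94.4 and 89.6 in KO D2, a log2 fold change of 1.68 (SE 0.17, adjusted p = 3.3e-06) in WT and 1.64 (SE 0.15, adjusted p = 8.7e-07) in KO. Ndufa12, a matrix arm subunit that takes the place of the assembly factor Ndufaf2, was at 23.9 and 27.5 CPM in WT D0, 72.6, 72.96 and 84.5 in WT D2, 29.2, 27.5 and 27.5 in KO D0 and 78.2, 87.04 and 90.8 in KO D2, or 2.99-fold higher in WT and 3.04-fold in KO. Neither gene passed the test of the difference between genotypes, with values of -0.04 and 0.03 on the log2 scale. The 12 members that rose by at least 1 on the log2 scale in both genotypes included Ndufs4, Ndufs5, Ndufs6, Ndufb2, Ndufb6 and Ndufc1.

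A few subunits fell or were not called. Ndufv3, an accessory subunit at the tip of the matrix arm near Ndufv1 and Ndufv2, was at 51.6 and 58.1 CPM in WT D0, 40.8, 38.04 and 45.7 in WT D2, 61.7, 56.5 and 63.4 in KO D0 and 53.2, 43.8 and 50.5 in KO D2. It fell in WT, by 0.40 on the log2 scale (SE 0.14, adjusted p = 0.026), and its value in KO was -0.30 (adjusted p = 0.052). The WT call was lost without WT D0 replicate 3 or WT D2 replicate 2 (adjusted p up to 0.12 over the leave-one-out fits) and with the GC adjustment (-0.25, adjusted p = 0.093). Ndufb10, a membrane arm subunit, was called in neither genotype (0.26 in WT and 0.21 in KO), but with the GC adjustment it was called higher in both (0.38, adjusted p = 0.014, and 0.27, adjusted p = 0.042). Ndufa10, a membrane arm subunit with a nucleoside kinase fold, and Ndufa6, a matrix arm subunit of the LYR family that binds the acyl carrier protein, changed by 0.49 and 0.54 in WT (both called) and had values of 0.06 and 0.15 in KO (not called). The differences between genotypes of -0.42 and -0.39 were not called (adjusted p = 0.21 and 0.39). With the GC adjustment both genes were called higher in KO, Ndufa10 at 0.47 (adjusted p = 0.0013) and Ndufa6 at 0.82 (adjusted p = 0.00049), and the differences between genotypes were -0.08 and 0.08. Their WT calls were lost without WT D0 replicate 2 or WT D2 replicate 3, and that of Ndufa6 also without WT D0 replicate 3 (adjusted p up to 0.078 and 0.084).

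Of the assembly factors, 5 of 8 were called higher in WT (median 0.42), and 4 higher and 1 lower in KO (median 0.32). Ndufaf4, which acts early on the module that binds ubiquinone, was at 14.99 and 14.6 CPM in WT D0, 40.9, 48.1 and 47.8 in WT D2, 14.7, 11.4 and 7.90 in KO D0 and 39.5, 48.9 and 52.5 in KO D2. Its log2 fold changes were 1.62 (SE 0.23, adjusted p = 6.4e-05) in WT and 2.05 (SE 0.20, adjusted p = 2.3e-06) in KO, the largest rise of any member in KO. Ndufaf2, a chaperone of the late steps, rose by 1.28 in WT and 1.40 in KO. Ndufaf5, which hydroxylates Ndufs7, rose by 0.47 and 0.75, and Ndufaf1, which acts on the membrane arm, by 0.37 and 0.42. The WT calls of Ndufaf5 and Ndufaf1 were each lost in 10 of 11 fits that left out 1 library, all but that without WT D2 replicate 2 (adjusted p up to 0.33 and 0.23). Both were also lost in WT with the GC adjustment, at 0.23 and 0.11, and Ndufaf1 in KO, at 0.08 (adjusted p = 0.53). Without KO D0 replicate 2, KO D2 replicate 1 or KO D2 replicate 3 the KO call of Ndufaf1 was lost as well (adjusted p up to 0.063). Ndufaf3, the partner of Ndufaf4, had values of 0.19 and 0.12. Ndufaf7, a methyltransferase of the early steps, had 0.19 and 0.22, and Ndufaf8, which works with Ndufaf5, had 0.22 and 0.18. None of these last 3 was called in either genotype, although Ndufaf3 was called in WT with the GC adjustment (0.33, adjusted p = 0.045) and Ndufaf7 in KO with RLE in place of TMM scaling of library sizes (0.33, adjusted p = 0.046).

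**Figure D2:**
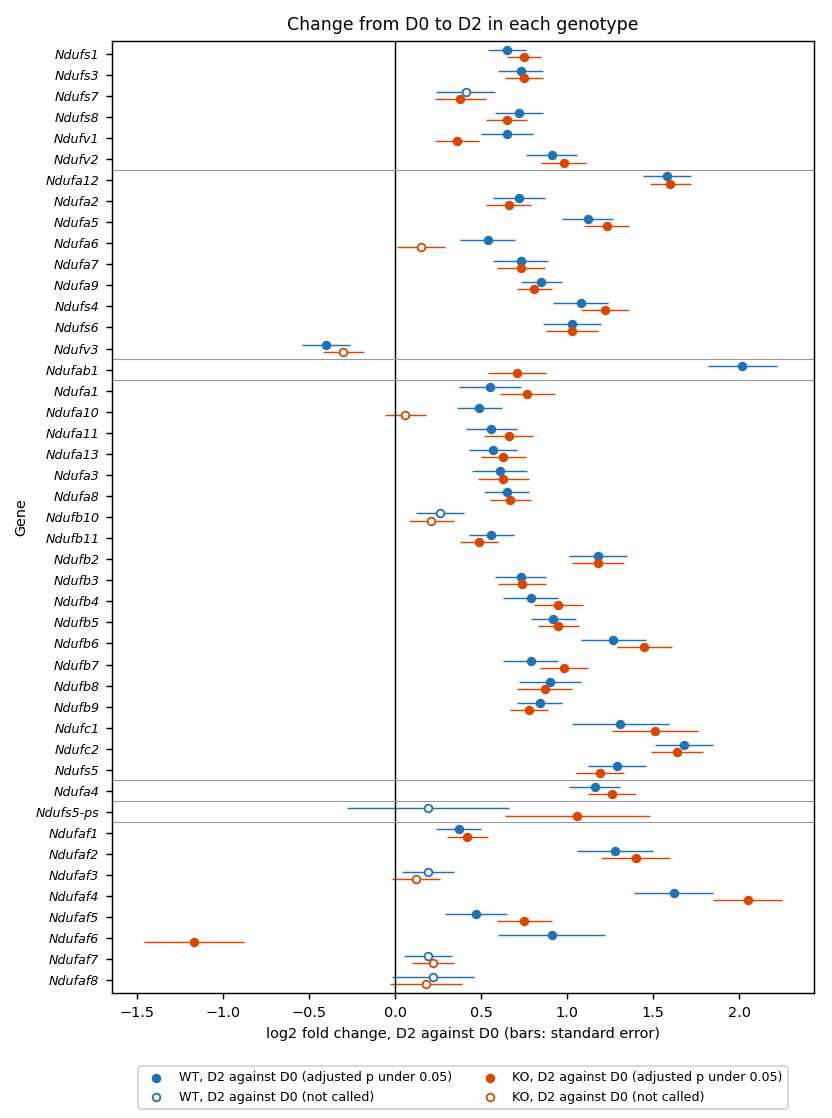
Log2 fold change from D0 to D2 (horizontal axis) of 45 tested members (vertical axis, grouped by role), for WT in blue and KO in orange, with bars for 1 standard error, filled points for members with an adjusted p under 0.05 and open points for the rest. Most pairs of points lie together to the right of 0; those of Ndufab1 (2.02 in WT, 0.71 in KO) and Ndufaf6 (0.91 in WT, -1.17 in KO) lie apart.

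Across the 36 subunits the change in WT and the change in KO had a Spearman rho of 0.883 and a Pearson r of 0.813. Across 12819 tested genes these were 0.842 and 0.864. The genes are not independent replicates, and all come from the same 11 libraries. Levels per kb of transcript put the complex I genes over a wide range. Ndufa4, the complex IV subunit, was the most abundant member, with a mean over all libraries of 236.1 CPM per kb, and stood at 86.7 and 87.8 CPM in WT D0, 195.0, 186.8 and 203.3 in WT D2, 107.6, 76.8 and 75.1 in KO D0 and 212.6, 210.3 and 198.6 in KO D2. Among complex I subunits, Ndufb7 (172.5 CPM per kb), Ndufb8 (146.2) and Ndufs7 (145.0) were highest, and Ndufab1 (16.1, on a transcript model of 3479 bases), Ndufa5 (30.7) and Ndufv3 (32.6) were lowest. The median subunit was at 52.7 to 68.8 CPM per kb in the D0 libraries and 92 to 113 in the D2 libraries.

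The reading of Ndufs5 and Ndufs5-ps is uncertain because near-identical sequences can share reads. Ndufs5-ps lies at chr16:42955580-42956079 (mm10), apart from Ndufs5 at chr4:123712710-123718186, and held 13 to 64 counts per library. Its KO rise of 1.06 (adjusted p = 0.042) rests on those counts and was lost in 7 of 11 fits that left out 1 library (adjusted p up to 0.15).

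The 250 bases before the start of 40 members were read from the RefSeq promoter table (GRCm38.p6, the build also called mm10), 42 windows in all. Transcription factors NRF1 and those of the ETS family that include GABP are known to act at many nuclear genes of the respiratory chain. The 10-letter NRF1-type motif has 1 free position, and its match in Ndufaf4 is marked here. Searched on both strands, it was in 8 of 42 member windows (19%). It was in 7.67% of 13683 windows of tested genes and 3.74% of all 32851 windows. The 8 include overlapping windows of Ndufa5 that hold the same match, so this match was counted more than once. The ETS letters CCGGAAG, on either strand, were in 5 of the 42 windows (11.9%), against 13% and 6.91%. The ERR-type letters TCAAGGTCA and an 11-letter YY1-type motif were in 0 of the 42, against 0.263% and 0.424% of windows of tested genes. A match describes letters and is not a binding site. Windows of 3 members are shown, 5′ to 3′ on the gene's strand, with the matching letters in capitals, since these genes rose by different amounts: Ndufaf4 (chr4:24897833-24898082, plus strand, NRF1 letters), Ndufb6 (chr4:40279422-40279671, minus strand, ETS letters in reverse complement) and Ndufab1 (chr7:122101849-122102098, minus strand, none of the 4).
Ndufaf4: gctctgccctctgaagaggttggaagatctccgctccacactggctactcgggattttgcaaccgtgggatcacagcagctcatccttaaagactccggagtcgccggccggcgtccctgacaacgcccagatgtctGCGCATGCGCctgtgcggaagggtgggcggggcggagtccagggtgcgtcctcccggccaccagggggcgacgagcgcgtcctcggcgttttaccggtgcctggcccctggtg
Ndufb6: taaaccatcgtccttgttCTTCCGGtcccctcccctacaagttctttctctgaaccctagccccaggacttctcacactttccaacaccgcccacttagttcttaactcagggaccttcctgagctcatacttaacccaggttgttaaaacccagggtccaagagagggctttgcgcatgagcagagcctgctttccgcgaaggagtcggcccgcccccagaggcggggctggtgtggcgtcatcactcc
Ndufab1: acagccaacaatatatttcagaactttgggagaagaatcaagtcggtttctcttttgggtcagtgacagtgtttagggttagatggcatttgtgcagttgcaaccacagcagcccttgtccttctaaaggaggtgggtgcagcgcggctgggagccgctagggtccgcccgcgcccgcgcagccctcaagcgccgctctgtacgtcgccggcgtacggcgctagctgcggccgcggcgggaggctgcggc
All 3 genes rose in both genotypes, Ndufb6 by 1.27 in WT and 1.45 in KO.

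At D0, LDHA deficiency went with no called change in these genes. None of 46 members passed the test in KO against WT at D0, where 0.153% of all genes tested were called. At an unadjusted p under 0.05, 1 was higher (Ndufb11, a membrane arm subunit, 0.30) and none lower, and DESeq2 also called 0. The median over members was 0.13, against 0.02 over all genes. In 11 members the KO libraries were all above both WT libraries and in 1 all below, beside 10.6% and 5.9% of all genes.

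At D2, 2 of 46 members were lower in KO than in WT and none was higher: Ndufab1, the mitochondrial acyl carrier protein, and Ndufaf6, an assembly factor of the ubiquinone module. Of all genes tested, 14.5% were called lower and 1.61% higher. The median over members was 0.15, against 0.01 over all genes tested. In 11 members the 3 KO libraries were all above the 3 WT libraries and in 3 all below, beside 12.4% and 21.3% of all genes. With RLE scaling in place of TMM, 2 members were called higher (Ndufa11 and Ndufb7) and 2 lower (Ndufab1 and Ndufaf6), and over all genes 440 were higher and 1762 lower, in place of 221 and 1986. Same-numbered KO and WT libraries deviated together at D2, though weakly, and same-numbered KO D0 and WT D2 libraries did so to a similar degree. With the number as a block, 3 members were called lower (Ndufab1, Ndufaf6 and Ndufa10) and 3 higher (Ndufa11, Ndufa13 and Ndufb7). Over all 13711 genes tested, that block gave 900 higher and 2544 lower, so nothing particular to complex I is read from these counts.

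Ndufab1 carries the growing acyl chain of mitochondrial fatty acid synthesis, takes part in iron-sulfur cluster assembly and sits in both arms of complex I through LYR-family partners. The gene lies at chr7:122086815-122101848 (mm10). It was at 104.2, 128.9 and 151.7 CPM in WT D2 and 35.2, 37.6 and 46.5 in KO D2, with 28.8 and 34.4 in WT D0 and 26.4, 26.1 and 20.5 in KO D0. The WT D2 libraries stood apart from all others, and the KO D2 libraries were just above the WT D0 libraries. KO was at 0.310 of the WT level at D2, a log2 fold change of -1.69 (SE 0.17, 95% interval -2.06 to -1.32, adjusted p = 8.4e-05), or -1.68 (adjusted p = 9.5e-06) with the block. From D0 to D2 it rose 4.06-fold in WT, the largest rise of any member there (log2 2.02, SE 0.20, adjusted p = 3.1e-06), and 1.63-fold in KO (0.71, SE 0.17, adjusted p = 0.0028). The change was smaller in KO by 1.31 on the log2 scale, a difference of -1.31 (SE 0.26, adjusted p = 0.017). Its partners in complex I, Ndufa6 and Ndufb9, had values of -0.12 and 0.16 in KO against WT at D2, and neither was called. With the GC adjustment they were at 0.33 (adjusted p = 0.20) and 0.42 (adjusted p = 0.023), so that Ndufb9 was called higher and Ndufa6 changed sign.

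Ndufaf6, at chr4:11048991-11076237, was the least abundant per kb of the tested members with a transcript length. Ndufs5-ps had none and was not ranked. It was at 5.33, 10.6 and 10.4 CPM in WT D2 and 1.84, 1.90 and 2.22 in KO D2, with 4.68 and 4.68 in WT D0 and 3.29, 5.34 and 4.76 in KO D0. The counts behind these levels ran from 36 to 252 per library. Every KO D2 library was below every other library, and WT D2 replicate 1 was close to the WT D0 libraries. KO was at 0.226 of the WT level at D2 (log2 -2.15, SE 0.29, 95% interval -2.78 to -1.51, adjusted p = 0.00038), or -2.11 (adjusted p = 7.5e-05) with the block. It fell in KO from D0 to D2, to 0.446 of its level (log2 -1.17, SE 0.29, adjusted p = 0.0038), and rose in WT by 0.91 (SE 0.31, adjusted p = 0.025). The difference of the changes was -2.08 (SE 0.43, adjusted p = 0.021). The WT rise was lost without WT D0 replicate 2 or 3 or WT D2 replicate 2 or 3 (adjusted p up to 0.13), and when only the compared groups entered the fit (adjusted p = 0.059).

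Both calls at D2 held in all 11 fits that left out 1 library, at -1.84 to -1.56 for Ndufab1 and -2.42 to -1.99 for Ndufaf6. The difference of the changes was the less stable result. Of all genes 5.84% were called in it, 5.72% lower in KO, and these 2 were the only members called. Both were lost without KO D0 replicate 2, KO D2 replicate 1, KO D2 replicate 2, WT D0 replicate 2 or WT D2 replicate 3, and Ndufaf6 also without WT D0 replicate 3, with adjusted p up to 0.12 for each.

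**Figure D3:**
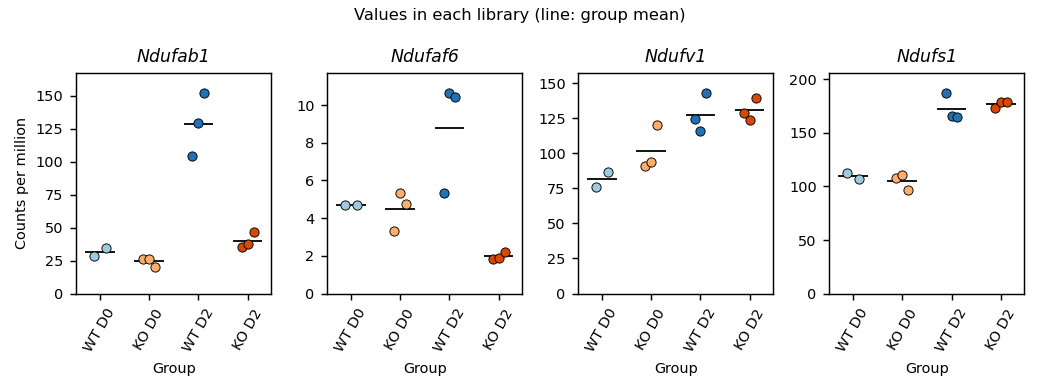
Levels of Ndufab1, Ndufaf6, Ndufv1 and Ndufs1 in CPM (vertical axes, linear, from 0) by group (horizontal axes), with 1 point per library and a line at the group mean. For Ndufab1 the 3 WT D2 libraries lie above the other 8 and for Ndufaf6 the 3 KO D2 libraries lie below the other 8, while KO and WT overlap at D2 for Ndufv1 and Ndufs1.

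Ndufaf6 and Ndufab1 have the most GC-rich coding stretches of the tested members. In the highest 100-base coding window GC was 82% for Ndufaf6 (chr4:11076011-11076110, minus strand, exon 1, coding bases 67 to 166) and 77% for Ndufab1 (chr7:122101721-122101820, minus strand, exon 1, coding bases 3 to 102). Next was Ndufb2 (76%, exons 1 and 2 on chromosome 6, coding bases 7 to 106), whose KO against WT value at D2 was 0.16. Ndufa12 (65%, exons 1 and 2 on chromosome 10, coding bases 3 to 102), with one of the largest rises, is shown for comparison. The windows are given 5′ to 3′ on the coding strand, from RefSeq-matched GENCODE transcripts of mm10, with runs of at least 6 G or C in capitals.
Ndufaf6: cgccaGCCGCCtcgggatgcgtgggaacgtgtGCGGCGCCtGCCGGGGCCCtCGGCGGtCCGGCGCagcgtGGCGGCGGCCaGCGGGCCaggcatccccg
Ndufab1: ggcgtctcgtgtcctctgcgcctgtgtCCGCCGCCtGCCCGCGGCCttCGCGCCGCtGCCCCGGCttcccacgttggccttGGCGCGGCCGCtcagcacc
Ndufb2: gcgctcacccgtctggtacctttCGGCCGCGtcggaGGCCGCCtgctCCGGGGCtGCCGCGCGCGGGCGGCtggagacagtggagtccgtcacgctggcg
Ndufa12: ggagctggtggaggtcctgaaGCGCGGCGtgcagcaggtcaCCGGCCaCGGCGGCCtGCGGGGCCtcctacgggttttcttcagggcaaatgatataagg
Ndufaf6 and Ndufab1 were called lower in KO at D2. Ndufb2, 1 point below Ndufab1, and Ndufa12 were not called. The relation of these windows to the calls was not tested.

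GC content moved with the D2 comparison across the whole table. Taking the highest 100-base window of the whole transcript, 33.5% of 5290 genes at or above 75% GC were called lower in KO at D2 (median log2 fold change -0.37), against 0.963% to 4.63% in the GC classes below. The median deviation of those 5290 genes from their own mean was -0.40, -0.34 and -0.37 on the log2 scale in the KO D2 libraries, -0.07, 0.22 and 0.14 in WT D2, 0.10, 0.24 and 0.24 in KO D0 and 0.17 and 0.20 in WT D0. KO D2 libraries were thus lowest, and WT D2 replicate 1, which also had the lowest Ndufab1 and Ndufaf6 of its group, lay between. Of 9 members at or above 75%, 2 were called lower (median -0.03), and the other 7 included Ndufa6, Ndufa10, Ndufa13, Ndufb2, Ndufb9 and Ndufv2. By this window Ndufa6 (78%) lay above Ndufab1 (77%) and Ndufa13 (77%) was level with it. Their KO against WT values at D2 were -0.12 for Ndufa6 and 0.29 for Ndufa13, and neither was called. Of 36 members below 75%, 0 were called lower. With a GC adjustment fitted over all genes, Ndufab1 was at -1.25 (adjusted p = 1.6e-04) and Ndufaf6 at -1.45 (adjusted p = 7.7e-04), while the KO fall of Ndufaf6 from D0 to D2 was no longer called (-0.38, adjusted p = 0.16). The part of GC content in the D2 values of these genes was not tested beyond this adjustment.

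**Figure D4:**
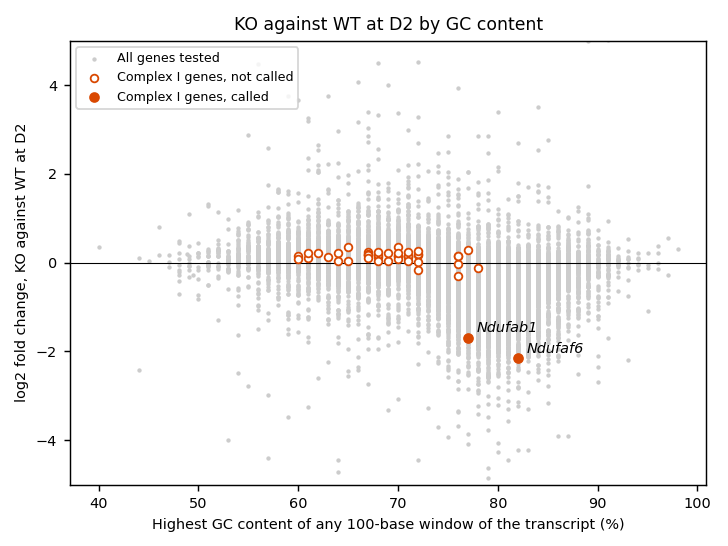
Log2 fold change of KO against WT at D2 (vertical axis, shown from -5 to 5) against the highest GC content of any 100-base window of the transcript in percent (horizontal axis), with tested genes in grey, members that were not called as open circles and called members as filled circles. Ndufab1 (77%, -1.69) and Ndufaf6 (82%, -2.15) lie below the other members, which run from -0.29 to 0.36. Ndufs5-ps has no transcript window and is not drawn.

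The core subunits of the matrix arm gave narrow limits at D2. KO against WT log2 fold changes were 0.03 for Ndufv1 (95% interval -0.26 to 0.32), -0.03 for Ndufv2 (-0.31 to 0.25) and 0.04 for Ndufs1 (-0.18 to 0.26). They were 0.17 for Ndufs3 (-0.08 to 0.42), 0.13 for Ndufs7 (-0.20 to 0.45) and 0.20 for Ndufs8 (-0.06 to 0.47). None was called, and these intervals exclude a change as large as that of Ndufab1 in either direction. With the GC adjustment Ndufv2 was at 0.32 and was called higher (adjusted p = 0.024).

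The next smallest p-values belonged to membrane arm subunits. Ndufa11, at 97.2, 91.4 and 96.8 CPM in KO D2 and 69.6, 69.1 and 83.4 in WT D2, had 0.36 (SE 0.14, adjusted p = 0.097). Ndufb7, at 156.3, 155.2 and 158.9 CPM in KO D2 and 113.6, 113.9 and 140.4 in WT D2, had 0.35 (SE 0.14, adjusted p = 0.11). Ndufa10, at 83.5, 83.8 and 96.2 CPM in KO D2 and 109.9, 97.1 and 114.6 in WT D2, had -0.29 (SE 0.12, adjusted p = 0.13). In all 3 the libraries of the genotypes did not overlap. With the block they passed, at 0.37 (adjusted p = 0.013), 0.36 (adjusted p = 0.011) and -0.29 (adjusted p = 0.027), as did Ndufa13, a membrane arm subunit also known as GRIM-19, at 0.30 (adjusted p = 0.027). With the GC adjustment Ndufa11 (0.24, adjusted p = 0.15) and Ndufa10 (0.00, adjusted p = 0.99) were not called, Ndufb7 was (0.34, adjusted p = 0.042), and Ndufa13 moved to 0.86 (adjusted p = 0.00074). Of the settings run without a library left out, the block within a day was the one in which Ndufa10 was called.

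Calls in the other lists of the respiratory chain at D2 stand beside the 14.5% of all genes tested, and 33.5% of genes at or above 75% GC, that were lower in KO, and nothing particular to these lists is read from them. Of 12 further assembly factors, 2 were lower: Tmem70, which acts on the membrane arm and on ATP synthase (-1.94, SE 0.22, adjusted p = 0.00015), and Acad9, a flavoprotein of the assembly complex that holds Ndufaf1 (-0.64, SE 0.12, adjusted p = 0.0021). Of 4 complex II genes 0 were called, with or without adjustment for multiple tests. Of 9 complex III genes, the Rieske protein Uqcrfs1 (-1.81, adjusted p = 0.00033) and the cytochrome Cyc1 (-1.90, adjusted p = 0.00047) were lower, and of 10 complex IV genes Cox5a was (-1.92, adjusted p = 5.9e-05). Of 15 ATP synthase genes, the catalytic subunit Atp5b (-0.83, adjusted p = 0.00042) and Atp5d (-0.90, adjusted p = 0.0012) were lower. No gene of these lists was called higher in KO at D2.

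Of 11 regulators of mitochondrial gene expression, 4 were lower in KO at D2: Gabpa (-0.83, adjusted p = 0.00047) and Gabpb1 (-0.66, adjusted p = 0.0047), the subunits of GABP, Pprc1, a coactivator (-0.86, adjusted p = 0.0056), and Polrmt, the mitochondrial RNA polymerase (-0.96, adjusted p = 0.039). These counts too stand beside the 14.5% of all genes tested that were called lower in KO at D2. All of these called genes outside the naming rule had a transcript window of at least 75% GC, a class in which 33.5% of genes were called lower. With the GC adjustment Acad9 (adjusted p = 0.052), Gabpa (-0.16), Gabpb1 (-0.02) and Atp5d (-0.28) were not called. The value of Polrmt with this adjustment is not given here.

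From D0 to D2 the other complexes rose as well, beside 27.5% of all genes called higher in WT, and 27% higher and 34.5% lower in KO. In WT 3 of 4 complex II genes, 9 of 9 complex III genes, 10 of 10 complex IV genes and 15 of 15 ATP synthase genes were called higher, with none lower. In KO the counts higher were 3, 7, 8 and 14, with 2 complex III genes lower. The 12 further assembly factors had 4 higher and 1 lower in WT and 2 higher and 3 lower in KO. The median log2 fold change was 1.15 for ATP synthase and 1.02 for complexes III and IV in WT, against 0.73 for complex I subunits. No test of the difference between lists was made.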

How the data were processed

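The members, gene lists, motifs and markers were chosen with earlier results of these data known. The authors deposited raw counts, whole numbers for each Entrez gene. Build mm10, Salmon 0.13.1 (also listed as 13.1), DESeq2 1.22.2, Trimmomatic 0.36 and bcl2fastq 2.20.0.422 appear in the submitters' processing notes. Their roles are not given in the sources used here, and the counts may be rounded estimates, which can divide reads between near-identical genes. Libraries were made from 2 ng RNA with SMART-seq v4 and KAPA Hyper Prep, per the labels' protocols.

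Symbols and positions came from RefSeq (GRCm38.p6), which matched 24387 of 24421 IDs. The share of counts in the 34 unmatched IDs was 0.0244% or less. Transcript lengths, GC and exons came from GENCODE.

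Counts were tested in edgeR 4.0.16 (R 4.3.3; quasi-likelihood test, robust, TMM, filterByExpr), in 1 fit of 11 libraries with 4 group means and 7 residual degrees of freedom. Genes were called at an adjusted p under 0.05 over 13711 genes, in each of 5 contrasts. The F statistic gave each SE and 95% interval. Scripts were tested on simulated data. Library values are printed for members called between genotypes, core subunits, the members with the largest changes between days and the most and least abundant members. The values of 1 member are not reported here. From other lists up to 3 called genes per direction are named, by smallest p, plus Polrmt to complete a count of 4. Ndufa6, Ndufa10, Ndufa11, Ndufa13, Ndufb7 and Ndufb9 were singled out after their values were seen.

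Whether replicate numbers pair the libraries was checked on each library's deviation from its group mean. KO and WT libraries with 1 number had correlations of 0.217, 0.198 and 0.114 at D2, and the numbers were taken as pairs there. KO D0 and WT D2 libraries with 1 number had similar correlations (0.218, 0.152 and 0.201), so the agreement was not particular to libraries of D2. The pairing is thus a weak hint from the data that the labels do not state. At D0 the 2 shared numbers gave 0.0275 and 0.410, and between days within KO 0.0427, 0.011 and 0.104, so no pairing was read there. The blocked alternatives were still fitted on all libraries. The block within a day thus also grouped D0 libraries by number, and the block across days grouped libraries of both days. Alternatives were RLE scaling, DESeq2 1.42.0, no filter, a mean of at least 5 CPM, only the compared groups, replicate blocks, an offset for transcript GC (spline with 4 degrees of freedom) and leaving out each library.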

Additional observations from a re-analysis of the deposited data

Results flagged for a closer look

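The change from D0 to D2 differed between genotypes, by the interaction test of edgeR, for 2 members and 6 genes of the other respiratory chain lists, all with a smaller or opposite change in KO. Over all genes tested 5.84% were called in this test, 5.72% lower in KO, so nothing particular to these lists is read from the count. The difference (KO change minus WT change, log2) was -1.31 for Ndufab1 (adjusted p = 0.017) and -2.08 for Ndufaf6 (adjusted p = 0.021). It was -1.58 for the assembly factor Tmem70 (adjusted p = 0.021), -1.79 for Uqcrfs1 (adjusted p = 0.019) and -1.75 for Cyc1 (adjusted p = 0.028) of complex III. It was -1.82 for Cox5a of complex IV (adjusted p = 0.0077), and -0.85 for Atp5b (adjusted p = 0.019) and -1.07 for Atp5d (adjusted p = 0.023) of ATP synthase.

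These 8 calls differed in how far they rest on single libraries. Cox5a was lost in 1 of 11 fits that left out 1 library (WT D0 replicate 2, adjusted p = 0.063), Ndufab1 and Atp5b in 5, Ndufaf6, Uqcrfs1 and Atp5d in 6, and Tmem70 and Cyc1 in 8. Cyc1 was also lost with no filter, with adjusted p up to 0.066 over the settings that kept all libraries, and Atp5d with the GC adjustment, with adjusted p up to 0.29. All 8 genes have a 100-base transcript window of at least 75% GC, a class in which 13.5% of 5290 genes were called lower in this test. The part of GC content in these differences was not tested beyond that adjustment.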

How the results depend on the processing

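The counts of members called from D0 to D2 stayed within 1.5 times the reported ones under every alternative run, at 36 to 41 in WT and 36 to 40 in KO with all libraries, and at 30 to 39 in WT and 35 to 39 in KO when 1 library was left out. The smallest WT count came without WT D0 replicate 2, which left 1 library in WT D0. Of 40 WT calls 29 held in all 11 such fits, and of 39 KO calls 35. KO against WT at D0 gave 0 under all alternatives. KO against WT at D2 gave 2 in each leave-one-out fit (2 to 2) and with no filter, 4 with RLE scaling, 5 with DESeq2, 4 where other groups stayed out of the fit, 6 under the replicate block within a day, 4 under that across days, 6 for the GC offset, 8 with GC offset and block within a day, 7 with GC offset and block across days, and 1 with a mean of at least 5 CPM, where Ndufaf6 was not tested. RLE scaling moved the median of all genes at D2 from 0.01 to 0.10, and in KO between days from -0.20 to -0.09. Calls over all genes at D2 were 998 higher and 1265 lower with the GC offset, and 900 and 2544 with the replicate block within a day, in place of 221 and 1986. They were 662 and 1956 with DESeq2, 490 and 2025 with only the compared groups, and 442 and 2283 with the block across days. GC offset and block gave 1707 and 1708 within a day, and 1387 and 1499 across days. With the GC offset alone Ndufab1 and Ndufaf6 were called lower in KO, and Ndufb7, Ndufa13, Ndufv2 and Ndufb9 higher. Ndufv2 at D2 turned from -0.03 to 0.32 with the GC offset, alone or with either replicate block. The genotype difference gave 2 calls, 0 to 2 in leave-one-out fits, 1 with a mean of at least 5 CPM and 5 with the replicate block within a day. The cause of these shifts was not tested. For the day comparisons the replicate block across days gave 41 calls in WT and 40 in KO. Low counts limit Ndufaf6, Ndufs5-ps and Ndufa4l2.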
